A study of Mus musculus with 39 samples.

Results

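The comparison set muscle from the first 14 days of tumour growth against muscle of control mice, with sequencing lane held in common. Gastrocnemius muscle of C57BL/6 mice was sequenced in 38 libraries with a count file, and 15 of them carried lane 5 or 6 in the name of that file. The 7 early tumour libraries came from mice that had received Lewis lung carcinoma (LLC) cells in the hind flank at 8 weeks of age, 3 with 7 days of tumour (week 1) and 4 with 14 days (week 2). The 8 control libraries came from mice given phosphate-buffered saline (PBS) in place of the cells. Lane 5 held 5 PBS libraries, 3 of week 1 and 2 of week 2, and lane 6 held 3 PBS libraries, 0 of week 1 and 2 of week 2. No other arm or agent enters the comparison, the age of the PBS mice at collection and the time of day of collection are not given in the sources used here, and every mouse carried either a flank injection of cells or one of saline. The labels give each sample a number of its own and do not say how animals relate to samples, so the replicates below are numbered in the order of the series and p-values speak to the variation among these samples, some of which could be technical.

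LLC is a line from a mouse lung tumour that grows in this strain and is used to model cancer cachexia, the wasting of muscle and fat that accompanies some tumours. In wasting muscle the ubiquitin ligases atrogin-1 (Fbxo32) and MuRF1 (Trim63) tag proteins of the fibre for the proteasome, under FoxO factors that insulin-like growth factor signalling restrains and that glucocorticoids and inflammatory cytokines can favour. The gastrocnemius is a calf muscle made mostly of fast, glycolytic fibres, with slow, oxidative fibres in its deep part, and its cells run a circadian clock in which Arntl (BMAL1) and Clock switch on the Per, Cry and Nr1d genes that then repress them. The comparison asks whether the muscle already departs from its control in the first weeks of tumour growth.

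Reads in genes numbered 14732772 to 24801565 per library, with the median at 17432964. The striated muscle markers summed to between 114150 and 172758 CPM (read counts scaled to library size) in the 15 libraries, as the labelled tissue requires. Before any test, 4 libraries stood apart. PBS replicate 1 had macrophage markers at a summed 1379 CPM against 112.5 to 256.7 in the other 7 PBS libraries, and the lowest striated muscle level. In week 1 replicate 7, reads of mitochondrial genes lay on 7 near-identical nuclear copies, at a summed 63969 CPM against 12.5 to 90.7 elsewhere. The mitochondrial genes mt-Atp6 and mt-Co3 were low in that library and in PBS replicate 2, with mt-Atp6 at 7.62 CPM and 34.4 CPM against 7582 or more in the others. Week 2 replicate 6 had 48.7% of its reads in genes against a median of 71.8%, and the mitochondrial ribosomal RNA mt-Rnr2 at 19286 CPM against 3119 or less.

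Libraries of different lanes differed to different degrees within one arm. Among PBS libraries, lane 6 differed from lane 5 in 3 of 14021 genes (edgeR, adjusted p under 0.05; 0.0214%). Early tumour libraries also exist in lanes 2 and 4, where there is no PBS. The 4 early tumour libraries of lane 2 differed from the 7 of lanes 5 and 6 in 2829 of 14086 genes (20.1%), 1184 higher and 1645 lower. The 4 of lane 4 differed from the same 7 in 0 genes by the adjusted test (0.0%), with 698 at an unadjusted p under 0.05. Both of these fits of tumour libraries held a term for week. What else the libraries of a lane share, beside the lane, was not tested.

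No single gene passed the adjusted test of early tumour muscle against PBS muscle at this number of libraries. Of 13609 genes tested with a lane term, 0 passed an adjusted p of 0.05 (edgeR quasi-likelihood test with Benjamini-Hochberg adjustment; 0.0%), and the smallest adjusted p was 0.794. At an unadjusted p under 0.05 there were 812 genes (5.97%), 394 higher (2.9%) and 418 lower (3.07%) with the tumour. The log2 fold change was above 0 in 47.6% of genes, with a median of -0.0079. DESeq2 called 1 gene, Smco1, and leaving out PBS replicate 8 also left 1, the same gene. The precision behind this count was moderate: the median standard error was 0.125 on the log2 scale, and 12507 genes (91.9%) had a 95% interval within 1 log2 unit of no change. Another 7 had an interval wholly outside that band without passing the adjusted test. How far these 7 rest on single libraries, such as week 1 replicate 7 with its high nuclear copies of mitochondrial genes, was not tested. Because whole muscle was sequenced, fewer cells of a type and less RNA per cell cannot be told apart in anything that follows.

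Smco1, a membrane protein with coiled coils, had the smallest p. Its CPM ran from 42.2 to 63.1 in PBS with a median of 51.6, and from 60.5 to 71.8 in early tumour with a median of 68.4. All 7 tumour libraries were above the PBS median and 6 were above the highest PBS library, which was PBS replicate 8. The fit put Smco1 (ENSMUSG00000046345, chromosome 16, 32271468 to 32274781 of GRCm38) 1.33-fold higher, with a log2 difference of 0.41 ± 0.08 (SE) and an adjusted p of 0.794. The difference was 0.44 at week 1 and 0.38 at week 2, and 0.40 in lane 5 and 0.42 in lane 6. The 8 early tumour libraries of lanes 2 and 4 played no part in this fit. They had 59.0 to 77.1 CPM of Smco1 when all 38 libraries were scaled together, against 62.3 to 73.6 for the 7 of lanes 5 and 6. Lanes 2 and 4 hold no PBS library, so these levels do not bear on the difference from PBS. A fit of all 38 libraries with lane terms put the Smco1 difference at 0.48 (edgeR quasi-likelihood test, unadjusted p = 0.0827).

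The other 9 genes of smallest p among those higher with the tumour have varied roles, and each had the same adjusted p of 0.794. Bhlhe41, a transcriptional repressor of the clock, ran from 39.7 to 66.4 CPM in PBS (median 47.1) and from 54.6 to 84.6 in early tumour (median 70.0), a log2 difference of 0.52 ± 0.12. Cdh13, the adiponectin-binding T-cadherin, ran from 49.8 to 74.3 CPM in PBS (median 58.7) and from 63.9 to 89.8 in early tumour (median 76.4), a log2 difference of 0.35 ± 0.08. Gpd1, the glycerol-3-phosphate dehydrogenase that joins glycolysis to lipid synthesis, ran from 393 to 562 CPM in PBS (median 465.7) and from 529 to 629 in early tumour (median 621). The groups overlapped at their edges in these genes, although every tumour library was above the PBS median. Dhcr7, the last enzyme of cholesterol synthesis, was higher by 0.46 ± 0.11, and Ptx3, a secreted pattern-recognition protein, by 0.43 ± 0.11. Ache, the acetylcholinesterase of the neuromuscular junction, was higher by 0.33 ± 0.08, the potassium channel Kcnc1 by 0.38 ± 0.10, and the water channel Aqp4 of fast fibres by 0.39 ± 0.10.

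The tenth of these genes, Rps16, is a ribosomal protein gene with many near-identical pseudogenes, so its count is uncertain. It took separate levels rather than a graded one. It was between 32.9 and 43.2 CPM in PBS replicates 1 to 7 and at 37.3 CPM in week 1 replicate 1, but at 86.9 CPM in PBS replicate 8 and between 93.3 and 116 CPM in 5 of the tumour libraries, with week 2 replicate 1 at 61.4. In lanes 2 and 4 it spread from 9.41 to 131 CPM. Over all 76 ribosomal protein genes tested the median log2 difference was 0.003, with 39 higher.

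The 10 genes of smallest p among those lower with the tumour have varied roles as well, and none passed the adjusted test. Hsp90aa1, the inducible cytosolic HSP90, ran from 49.5 to 93.6 CPM in PBS (median 69.9) and from 47.0 to 62.6 in early tumour (median 49.2), a log2 difference of -0.44 ± 0.10. All 7 tumour libraries were below the PBS median, and 6 of them lay between 47.0 and 50.2 CPM. Hsp90b1, its counterpart in the endoplasmic reticulum, was lower by 0.23 ± 0.06, and Pdia3, a disulfide isomerase there, by 0.40 ± 0.11. Gsr, which recycles glutathione, was lower by 0.32 ± 0.09, with 6 of 7 tumour libraries below the lowest PBS library. The rest were Zhx1, a homeobox repressor (-0.27 ± 0.06), the spindle protein Tpx2 (-0.50 ± 0.12), Tmem38b, a cation channel of the sarcoplasmic reticulum (-0.27 ± 0.07), Trmt10c, which matures mitochondrial transfer RNA (-0.30 ± 0.08), Slc35f5 (-0.36 ± 0.09) and the isopeptidase Desi1 (-0.36 ± 0.09).

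**Figure D1:**
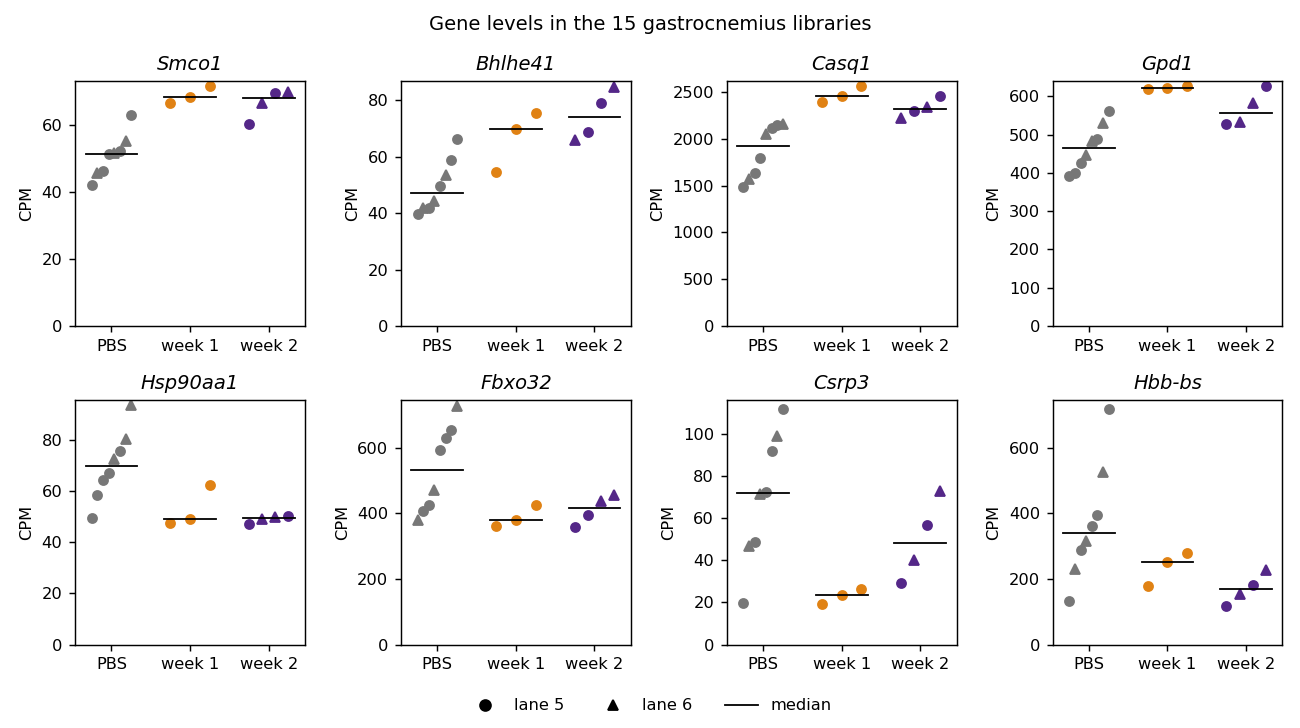
Level of 8 genes (CPM, axes from 0) in each library, by group, with circles for lane 5, triangles for lane 6 and a line at the group median. Casq1 is the gene shown whose tumour libraries (2217 to 2562 CPM) all lie above the PBS libraries (1484 to 2155 CPM), and the other 7 overlap.

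Only 4 genes of 13609 (0.0294%) had no overlap between the 7 tumour and 8 PBS libraries, and they are named here after their values were seen. Casq1, the calcium-binding protein of the sarcoplasmic reticulum in fast fibres, ran from 1484 to 2155 CPM in PBS (median 1922) and from 2217 to 2562 in early tumour (median 2389), a log2 difference of 0.35 ± 0.10. Arap3, a GTPase-activating protein best known from endothelium, ran from 14.99 to 19.4 CPM in PBS and from 19.5 to 26.3 in early tumour. Dolpp1, of dolichol recycling for protein glycosylation, ran from 9.01 to 11.2 CPM in PBS and from 6.93 to 8.82 in early tumour. Kcnu1, a potassium channel gene, was near the limit of detection, at 0.0596 to 0.598 CPM in PBS and 0.672 to 1.18 in early tumour. None of the 4 passed the adjusted test. How many genes would separate in this way with arms assigned at random was not tested.

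The ubiquitin ligase genes most used as markers of atrophy gave no call, and Fbxo32 lay below PBS. Fbxo32 ran from 380 to 729 CPM in PBS (median 533) and from 359 to 457 in early tumour (median 397). All 7 tumour libraries were below the PBS median, and the groups overlapped between 380 and 457 CPM. The log2 difference was -0.41 ± 0.14, with a 95% interval from -0.70 to -0.13 and an adjusted p of 0.805. The interval lay wholly below 0, but it is not adjusted for the number of genes tested. The difference was -0.50 in lane 5 and -0.24 in lane 6, and between -0.48 and -0.33 when any 1 library was left out.

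Trim63 ran from 218 to 819 CPM in PBS (median 291) and from 275 to 368 in early tumour (median 295). The highest value was PBS replicate 1, and without it the log2 difference of -0.14 ± 0.22 became 0.06. Of 18 muscle ubiquitin ligase genes tested, 12 were higher and 0 passed, with a median of 0.03 against -0.0079 for all genes. Trim55 (MuRF2), which sits beside titin, was higher by 0.15 ± 0.06, and Ubr2, a ligase of the N-degron pathway, by 0.15 ± 0.07. The 31 proteasome subunit genes had a median of -0.06 with 7 higher, and the 24 genes of autophagy and lysosome a median of -0.01 with 11 higher.

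Upstream regulators of atrophy gave no call and mostly had wide or near-zero intervals. Foxo1 was at -0.05 ± 0.09 and Mstn, the secreted brake on muscle growth, at -0.13 ± 0.11. Igf1 was at -0.15 ± 0.26, from 16.4 to 51.1 CPM in PBS and from 15.8 to 50.8 in early tumour. Cdkn1a, the cell cycle inhibitor p21, ran from 8.47 to 53.3 CPM in PBS (median 22.8) and from 11.3 to 19.4 in early tumour (median 12.6), a log2 difference of -0.70 ± 0.29. Its highest value was PBS replicate 1, and with any 1 library left out the difference lay between -0.85 and -0.50. Socs3, a feedback inhibitor of cytokine signalling, ran from 2.06 to 30.1 CPM in PBS (median 3.32) and from 1.74 to 5.69 in early tumour (median 3.07). Its difference of -0.84 ± 0.57 turned on PBS replicate 6, at 30.1 CPM. Stat3 was at 0.12 ± 0.07, and of 13 genes of the IL-6 and STAT3 list 5 were higher, with a median of -0.06 (0.14 in lane 5, -0.47 in lane 6).

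Slow-fibre genes were lower in early tumour as a list, and fast-fibre genes mostly higher, with 0 members passing in either. All 14 slow-fibre genes tested had a negative log2 difference, with a median of -0.44, while 47.6% of all genes were above 0. Csrp3, the muscle LIM protein of the Z-disc, ran from 19.8 to 112 CPM in PBS (median 72.0) and from 19.2 to 73.1 in early tumour (median 29.3). The libraries of week 1 lay between 19.2 and 26.2 CPM, below 7 of the 8 PBS libraries, and those of week 2 between 29.3 and 73.1. The log2 difference was -0.89 ± 0.32, with -1.55 at week 1 and -0.53 at week 2. Ankrd2, a stretch-responsive Z-disc protein, was lower by 0.48 ± 0.21, Casq2, the slow calsequestrin, by 0.47 ± 0.24, Tnnt1, slow troponin T, by 0.53 ± 0.30, and Myh7, slow myosin, by 0.48 ± 0.33. Without PBS replicate 3 the difference was -0.23 for Casq2 and -0.27 for Myh7, and the list median was -0.27 without PBS replicate 3 and also -0.27 without PBS replicate 5.

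The summed slow-fibre level ran from 1668 to 6486 CPM in PBS and from 3006 to 3888 in early tumour, so the tumour libraries sat inside the range of the controls. PBS replicate 5 was the highest and PBS replicate 7 the lowest. The list median was -0.59 in lane 5 and -0.09 in lane 6, where 4 of 14 were higher. Of 15 fast-fibre genes, 13 were higher with a median of 0.15, among them Atp2a1, the fast calcium pump (0.20 ± 0.09), Mybpc2 (0.16 ± 0.08) and Myoz1 (0.15 ± 0.08). Myh4, the myosin of the fastest fibres, ran from 29331 to 50944 CPM in PBS (median 36914) and from 39212 to 51105 in early tumour (median 45137), a log2 difference of 0.20 ± 0.11.

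Chaperone genes lay low together. Of 23 heat shock and chaperone genes, 20 were lower with the tumour, the median was -0.14, and 6 were lower at an unadjusted p under 0.05, against 3.07% of all genes. Besides Hsp90aa1 these included Hsph1, the HSP110 co-chaperone (102 to 143 CPM in PBS, 69.9 to 122 in early tumour, -0.30 ± 0.09), and Dnajb4, an HSP40 (58.0 to 83.8 and 50.5 to 64.0 CPM, -0.24 ± 0.08). In both genes 5 of 7 tumour libraries were below every PBS library. The small heat shock proteins Cryab, which guards desmin (-0.40 ± 0.17), and Hspb8 (-0.31 ± 0.12) were lower too, each with its highest value in PBS replicate 1. Without that library the list median was -0.11, and with week 1 replicate 7 and week 2 replicate 6 left out as well it was -0.08.

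Heat shock genes are switched on by HSF1, whose binding site is built of GAA units in alternating orientation. Of the 23 genes, 18 had a window in the RefSeq promoter table (GRCm38.p6, 250 bases before to 50 after the start), with 27 windows in all, some of them overlapping windows of 1 gene. The facing pair GAANNTTC, searched on both strands, was in 13 of these 27 windows, belonging to 12 genes, against 7.86% of all 32817 windows. Dnajb4 held no copy in its windows, and Hsp90aa1 and Cryab had no window. Hsph1 and Hspb8 are shown for their copy of this motif, in capitals, read 5′ to 3′ along the gene.
Hsph1, chr5:149636287-149636586, minus strand: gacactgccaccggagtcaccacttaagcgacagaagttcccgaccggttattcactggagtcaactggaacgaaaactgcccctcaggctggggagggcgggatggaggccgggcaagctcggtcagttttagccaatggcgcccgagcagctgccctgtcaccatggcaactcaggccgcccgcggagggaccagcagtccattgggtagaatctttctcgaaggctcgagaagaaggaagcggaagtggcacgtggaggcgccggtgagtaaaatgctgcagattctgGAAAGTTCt
Hspb8, chr5:116422815-116423114, minus strand: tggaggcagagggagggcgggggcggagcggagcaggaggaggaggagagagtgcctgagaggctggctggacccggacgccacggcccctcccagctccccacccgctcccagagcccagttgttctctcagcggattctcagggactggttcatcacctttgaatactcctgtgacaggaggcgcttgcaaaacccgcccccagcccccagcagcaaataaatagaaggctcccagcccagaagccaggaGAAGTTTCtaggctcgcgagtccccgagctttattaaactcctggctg
In both windows the pair lies just past the start. A match describes the letters and is not evidence of binding.

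Genes of the endoplasmic reticulum and integrated stress response followed the same direction, with 18 of 23 lower, a median of -0.14 and 5 lower at an unadjusted p under 0.05, against 3.07% of all genes. Hspa5 (BiP), the main chaperone of that compartment, ran from 143 to 193 CPM in PBS (median 167) and from 124 to 161 in early tumour (median 140), a log2 difference of -0.23 ± 0.07, and all 7 tumour libraries were below the PBS median. Atf6, a sensor of unfolded protein, was lower by 0.14 ± 0.06. Of 21 antioxidant genes 15 were lower, with a median of -0.12, among them Gsr, Txnrd1, the cytosolic thioredoxin reductase (-0.20 ± 0.07), and Prdx1, a peroxiredoxin (-0.19 ± 0.07). Without PBS replicate 1 the antioxidant median was -0.05, and with week 1 replicate 7 and week 2 replicate 6 left out as well it was -0.03.

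Genes of glycolysis and glycogen mostly lay slightly above PBS, and genes of fatty acid use did not. Of 24 genes of glycolysis and glycogen, 20 were higher, the median was 0.12, and 8 were higher and 1 lower at an unadjusted p under 0.05, against 2.9% and 3.07% of all genes. Pgam2, the muscle phosphoglycerate mutase, ran from 908 to 1396 CPM in PBS (median 1184) and from 1312 to 1568 in early tumour (median 1355), a log2 difference of 0.28 ± 0.09. Pfkfb1, which sets the level of fructose 2,6-bisphosphate, was at 0.34 ± 0.10, and Pfkm, the muscle phosphofructokinase, at 0.17 ± 0.07. Gbe1, the glycogen branching enzyme, was the lower one, at -0.31 ± 0.13. The list median was 0.16 in lane 5 and 0.09 in lane 6. Of 25 genes of fatty acid use 10 were higher, with a median of -0.015 and 1 at an unadjusted p under 0.05, and 2 of the 25 were higher at week 1 and 19 at week 2.

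Nuclear genes of the respiratory chain were higher in 32 of 36 for complex I (median 0.08) and in 30 of 34 for complexes III to V (median 0.07), with 0 at an unadjusted p under 0.05. At week 1 these medians were -0.02 and -0.06, and at week 2 they were 0.13 and 0.15. The tricarboxylic acid cycle list had 19 of 21 higher, with a median of 0.09. Ppargc1a, a coactivator of mitochondrial biogenesis, was at 0.08 ± 0.08, with a 95% interval from -0.10 to 0.25. The 13 mitochondrially encoded genes, of which 4 were higher, cannot be read across these libraries, since week 1 replicate 7 and PBS replicate 2 lost reads of several of them.

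**Figure D2:**
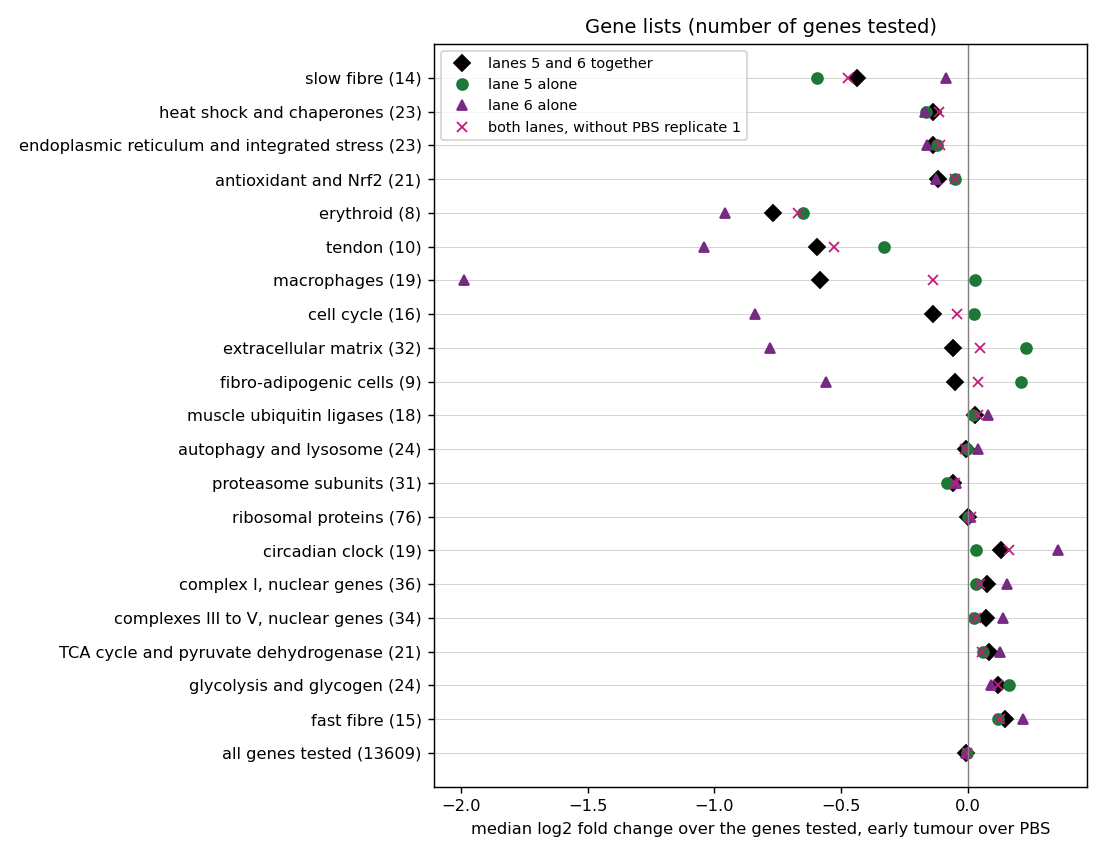
Median log2 fold change of early tumour over PBS for 20 gene lists and for all genes tested (number of genes in brackets), with both lanes together, in each lane alone, and without PBS replicate 1. The macrophage list moves from -1.99 in lane 6 to 0.03 in lane 5, while the heat shock list stays between -0.17 and -0.11 in the settings shown.

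Markers of other cell types differed by lane and by single libraries. Of 8 erythroid genes 6 were lower, 5 of them at an unadjusted p under 0.05 against 3.07% of all genes. Hbb-bs, adult beta globin, ran from 133 to 716 CPM in PBS (median 339) and from 117 to 279 in early tumour (median 182). All 7 tumour libraries were below the PBS median, and the log2 difference was -0.91 ± 0.28. Hba-a1, alpha globin, was at -0.83 ± 0.28 and Alas2, the erythroid enzyme that begins haem synthesis, at -0.74 ± 0.25. Reads of the paired globin genes can be split between near-identical copies, but the 4 globin genes lay on the same side. The 2 higher members were Bpgm, the enzyme that makes 2,3-bisphosphoglycerate, at 0.17 with an unadjusted p under 0.05, and Slc4a1, the anion exchanger of red cells, at 0.12. The median of the 8 erythroid genes was -0.77, with -0.65 in lane 5 and -0.96 in lane 6, and the summed level ran from 339 to 1343 CPM in PBS and from 348 to 602 in early tumour. How much blood was left in each muscle was not tested.

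All 19 macrophage markers were lower, with a median of -0.58, but the median rested largely on 1 library. Adgre1 (F4/80) was at 31.9 CPM in PBS replicate 1, from 1.87 to 7.42 CPM in the other PBS libraries and from 2.15 to 4.24 in early tumour. Without PBS replicate 1 the median was -0.14. In lane 5, which does not hold that library, 12 of 19 were higher and the median was 0.03, and in lane 6 it was -1.99. None of the 20 listed markers was at 0 in all libraries. The genes listed for tendon, not all of which need be particular to it, were lower in all 10 (median -0.59). The matrix glycoproteins Thbs1 (-1.75 ± 0.56) and Comp (-1.21 ± 0.53) were among them. Their summed level ran from 95.2 to 691 CPM in PBS and from 87.9 to 332 in early tumour, with PBS replicate 3 the highest. Without that library the median was -0.13, Thbs1 was at -0.87 and Comp at -0.57, and without week 1 replicate 1 the median was -0.99. By week the median was -0.20 at week 1 and -1.03 at week 2. Of 32 extracellular matrix genes 9 were higher, and the median of -0.06 was 0.23 in lane 5 and -0.78 in lane 6. Col1a1 and Col3a1, the fibrillar collagens, were at 0.14 ± 0.36 and -0.11 ± 0.32.

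**Figure D3:**
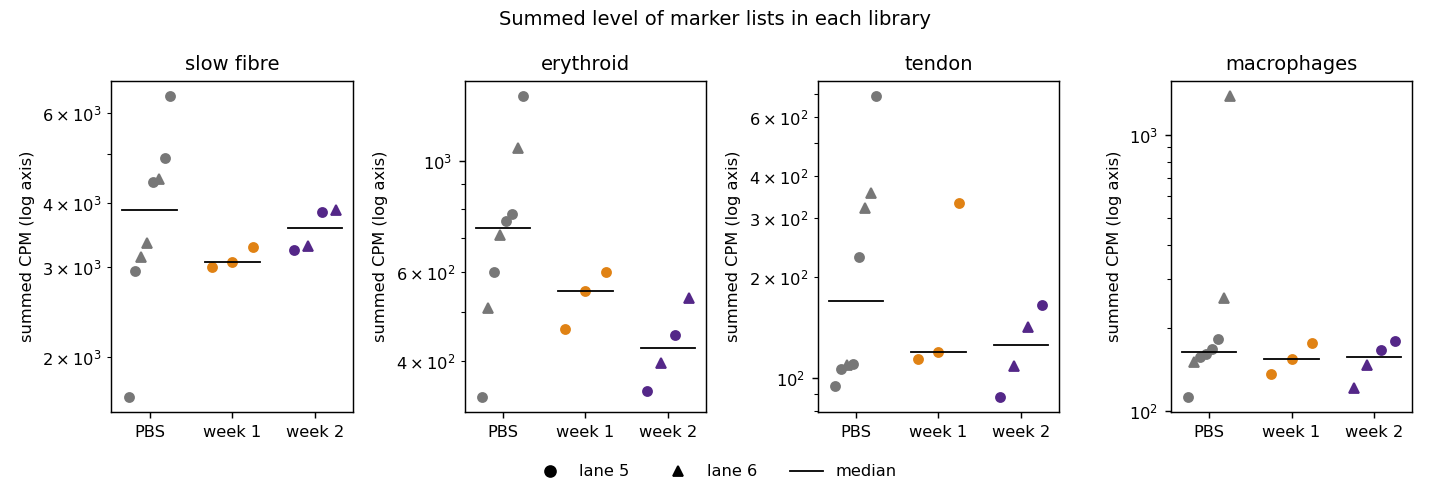
Summed CPM (log axis) of the genes of 4 lists in each library, by group, with circles for lane 5, triangles for lane 6 and a line at the group median. PBS libraries spread more widely than tumour libraries, and PBS replicate 1 is alone at 1379 CPM in the macrophage list.

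Pooling weeks 1 and 2 joined libraries that differed in the clock. Over both weeks Arntl was at -0.45 ± 0.32, Per2 at 0.55 ± 0.32 and Dbp, a clock-driven transcription factor, at 0.46 ± 0.30, and 12 of 19 clock genes were higher with a median of 0.13. By week they parted. Arntl stood at 20.5, 23.6 and 15.1 CPM in the 3 libraries of week 1, at 4.48, 5.99, 10.4 and 9.73 CPM in the 4 of week 2, and from 9.29 to 29.0 CPM in PBS (median 15.8). The weeks did not overlap, and week 2 reached down from the lower end of PBS.

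Arntl was the 1 gene of 13609 (0.00735%) that differed between the weeks by the adjusted test (edgeR, log2 difference of week 2 over week 1 -1.83 ± 0.26, adjusted p = 0.0333). Unadjusted, 856 genes differed (6.29%), and 10 of the 19 clock genes were among them. The call was lost in 8 of the 15 fits that left out 1 library, those without PBS replicate 1, 2, 3 or 7 or any 1 of the week 2 libraries, where the adjusted p ran from 0.0605 to 0.219. Over all 15 the log2 difference lay between -1.99 and -1.68. Per2 ran from 8.36 to 19.7 CPM at week 1 and from 25.7 to 41.8 at week 2, Per3 from 28.8 to 49.1 and from 59.2 to 76.8, Cry2, a repressor partner of Per, from 28.7 to 39.3 and from 47.4 to 54.0, and Clock from 41.1 to 50.4 and from 25.1 to 39.4. In these 4 too the weeks did not overlap, as in 8 of the 19 clock genes, against 8.29% of all 13609 genes. Nr1d1 overlapped between the weeks (107 to 180 and 65.7 to 115 CPM), as did Cry1 (14.1 to 15.6 and 11.0 to 16.5 CPM). Both were below the PBS median in 3 of the 4 week 2 libraries. Within lane 5, which holds both weeks, Arntl was at 15.1 to 23.6 CPM at week 1 and at 4.48 and 5.99 CPM at week 2.

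Set against PBS separately, week 1 had 7 genes called (0.0514%), all of them the nuclear copies of mitochondrial genes, which were high in week 1 replicate 7. In 12 of the 15 fits that left out 1 library the count was 0, and it was 1 without PBS replicate 8, 7 without week 1 replicate 1 and 8 without week 1 replicate 6. Week 2 had 2 called (0.0147%), Arntl (-1.39 ± 0.21, adjusted p = 0.0343) and Mylk4, a kinase of the myosin light chain kinase family (0.85 ± 0.13, adjusted p = 0.0343). Mylk4 is named after its value was seen, and it ran from 1238 to 2913 CPM in PBS and from 2898 to 3860 at week 2. Both calls were kept in 3 of the 15 fits that left out 1 library, those without PBS replicate 5, 6 or 8, and the log2 difference lay between -1.50 and -1.29 for Arntl and between 0.79 and 0.92 for Mylk4 over the 15. DESeq2 called 50 genes at week 2, and leaving out the 3 libraries PBS replicate 1, week 1 replicate 7 and week 2 replicate 6 left 0.

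The controls varied along the same genes. Across the 8 PBS libraries log2 levels of Arntl and Per2 were opposed (Pearson r = -0.93, exact permutation p = 0.000595, adjusted p = 0.0107 over 18 clock genes; Spearman rho = -0.88, exact permutation p = 0.00724, adjusted p = 0.0628; r = -0.82 without the 2 libraries farthest from the median of Arntl). Of the 18 genes set against Arntl this way, 14 were negative, 8 passed at an adjusted p under 0.05 by Pearson and 0 by Spearman. The spread followed the lane only in part. PBS replicates 1 and 2 of lane 6 were at 27.1 and 29.0 CPM of Arntl and the 5 of lane 5 between 9.29 and 20.6. PBS replicate 6, also of lane 6, lay lower than these 2. Leaving it out moved the Arntl difference of week 2 from PBS from -1.39 to -1.50. Neither lane holds the 6 PBS libraries needed to repeat the correlation.

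**Figure D4:**
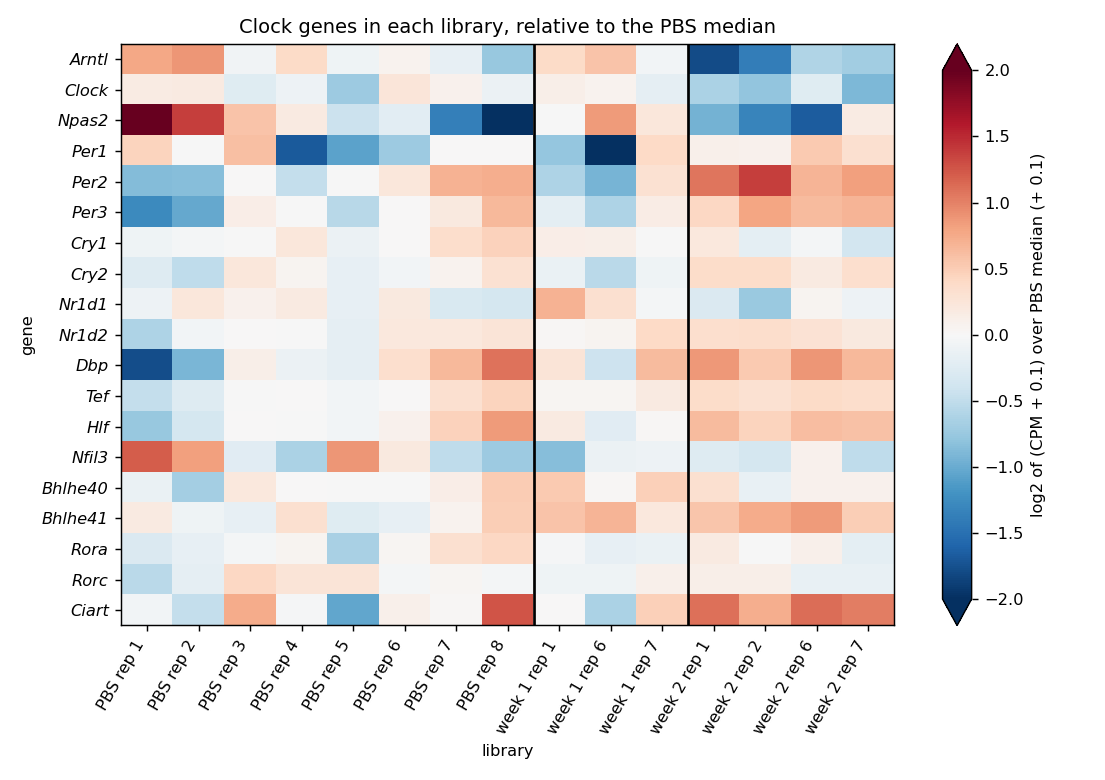
Level of 19 clock genes in each of 15 libraries as the log2 ratio to the PBS median (0.1 CPM added to both), libraries in columns and black lines between PBS, week 1 and week 2. Arntl and Clock are low in all 4 week 2 libraries, and Per2, Per3, Cry2, Dbp, Tef, Hlf and Ciart are above the PBS median in these 4. Nr1d1 and Cry1 are below it in 3 of the 4.

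The promoters of 3 clock genes show the sequences through which the loop works in general: BMAL1 and CLOCK bind the E-box CACGTG, and REV-ERB (Nr1d1, Nr1d2) and ROR bind AGGTCA with a stretch rich in A and T before it. Both were searched on both strands and are in capitals, in RefSeq windows of GRCm38.p6 as above. The E-box was in 7.15% of all windows and AGGTCA in 16.3%, and of the 21 windows of 16 clock genes 6 held the E-box and 5 held AGGTCA. The windows of Per3, Cry2, Dbp, Hlf and Nr1d1 held neither, and Per2 had no window.
Arntl, chr7:113207261-113207560, plus strand: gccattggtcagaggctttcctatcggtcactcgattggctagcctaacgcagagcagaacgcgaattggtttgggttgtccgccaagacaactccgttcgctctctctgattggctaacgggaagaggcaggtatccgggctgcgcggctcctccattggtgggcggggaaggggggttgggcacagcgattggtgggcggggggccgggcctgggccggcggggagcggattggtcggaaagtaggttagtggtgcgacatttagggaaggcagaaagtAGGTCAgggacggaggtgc
Bhlhe41, chr6:145865371-145865670, minus strand: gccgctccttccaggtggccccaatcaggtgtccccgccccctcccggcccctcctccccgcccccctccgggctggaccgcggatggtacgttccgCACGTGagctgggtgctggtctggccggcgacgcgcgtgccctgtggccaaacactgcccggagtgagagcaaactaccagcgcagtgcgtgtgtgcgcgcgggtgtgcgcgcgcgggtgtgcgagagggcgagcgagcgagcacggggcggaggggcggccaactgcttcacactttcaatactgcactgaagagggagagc
Ciart, chr3:95882179-95882478, minus strand: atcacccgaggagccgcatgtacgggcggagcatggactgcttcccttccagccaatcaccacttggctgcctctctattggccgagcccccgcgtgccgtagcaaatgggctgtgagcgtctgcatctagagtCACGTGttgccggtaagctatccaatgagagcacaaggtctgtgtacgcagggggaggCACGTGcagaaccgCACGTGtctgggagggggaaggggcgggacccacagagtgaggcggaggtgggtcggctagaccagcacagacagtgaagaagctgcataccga
Ciart, a repressor of BMAL1 and CLOCK, holds 3 E-boxes, and ran from 2.56 to 5.63 CPM at week 1 and from 6.74 to 8.86 at week 2. Bhlhe41 holds 1 E-box and was high at both weeks (0.40 and 0.60). Arntl holds 1 AGGTCA in this window and none in the overlapping window just upstream.

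The size of the tumour difference was compared between lanes with an interaction term. Of 13609 genes 1 passed (0.00735%), Oaz2, an antizyme that restrains polyamine synthesis, and 1240 genes had an unadjusted p under 0.05 (9.11%). In lane 6 the 3 PBS libraries had 68.5, 76.2 and 80.3 CPM of Oaz2 and the 2 tumour libraries 176 and 170. In lane 5 the 5 PBS libraries had 132 to 175 CPM and the 5 tumour libraries 84.7 to 140. The interaction was 1.62 on the log2 scale (adjusted p = 0.00672), with -0.42 in lane 5 and 1.20 in lane 6. The 2 tumour libraries of lane 6 are both of week 2, and the 2 of week 2 in lane 5 had 112 and 127 CPM. With tumour libraries of week 2 only, an alternative chosen after seeing the data, the interaction was 1.59 (adjusted p = 0.0061). The Oaz2 call was lost without week 2 replicate 6 (adjusted p = 0.0513). It was also lost with PBS replicate 1, week 1 replicate 7 and week 2 replicate 6 all left out (interaction 1.55, adjusted p = 0.219). The count was 48 without PBS replicate 6, 11 without week 2 replicate 7 and 2 without PBS replicate 5. Of the 19 macrophage markers 17 and of the 32 extracellular matrix genes 22 had an unadjusted interaction p under 0.05, and lane 6 holds PBS replicate 1.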

How the data were processed

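Per the labels' protocols, RNA was extracted with Trizol and libraries were prepared with a TruSeq kit. The unit is the raw count per gene as deposited by the authors. The submitters' processing notes name FastQC, HISAT2 and HTSeq, and GRCm38.p5 as the build; versions, strand setting and annotation release are not given in the sources used here, so overlapping genes on opposite strands may share reads. The 5 summary lines of each file stayed out of library sizes and tests. For the 15 libraries they held, among others, reads without a feature (3.80% to 10.1%), ambiguous reads (3.35% to 11.0%) and reads without a unique alignment (9.73% to 25.5%). Of 46078 genes, 45229 were named from GENCODE M21 (GRCm38). No 2 libraries of a group duplicated each other (lowest chi-square per degree of freedom 18.5).

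Genes were filtered with filterByExpr (minimum count 10), scaled by TMM and tested with edgeR 4.0.16 in R 4.3.3 by quasi-likelihood fits with lane and arm as terms, and p-values were adjusted over 13609 genes. Weeks and the interaction of lane and arm were tested in fits of the same 15 libraries. CPM are of TMM-scaled libraries, and 95% intervals and standard errors come from the fit. The code was tested on simulated data. Lists are given as counts and medians, without a test.

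The arms, members and gene lists were chosen with earlier results of these data known. Named are 18 genes always, the 10 uncalled genes of smallest p in each direction of at least 5 CPM on average, up to 4 members of smallest p per list described, and called genes of the other contrasts; predicted genes and pseudogenes were left out of the rule. Not every gene the rule takes is described. Alternatives were RLE and upper quartile factors, all genes with a read, genes averaging 5 CPM or more, DESeq2 1.42.0, voom of limma 3.58.1, no lane term, each lane or week alone, all 38 libraries, a change of at least 1.5 times, a robust fit, and libraries left out. Chosen after seeing the data were the fit of all 15 early libraries without a lane term, the alternatives of each week against PBS, the lane interaction with tumour libraries of week 2 only, the clock correlations and the promoter motifs. The authors' deposited comparison tables were not used.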

Additional observations from a re-analysis of the deposited data

Results flagged for a closer look

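A library was called far from the rest of its arm by its gap to the nearest other library against the range of the arm. This held in 44 of 272 groups of values checked (16.2%). Chance gives about 1 in 20 if values are normally distributed, which was not tested and which CPM need not be. Since many of the genes and lists move together in 1 library, these are not separate events.

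PBS replicate 1 accounted for most of those in PBS. It was high in Trim63 (819 CPM), Cdkn1a (53.3 CPM), Col3a1 (610.7 CPM), Cryab (1129 CPM), Hspb8 (669 CPM), B2m of antigen presentation (201 CPM) and the macrophage genes Ms4a7 (13.9 CPM), Tyrobp (22.7 CPM), Adgre1 (31.9 CPM) and C1qb (53.7 CPM). It was low in Kcnc1 (50.8 CPM), Atp2a1 (10658 CPM) and Myoz1 (1504 CPM). As mean log2 CPM over a list it was high in macrophages (5.26), cell cycle (3.37), FoxO and glucocorticoid (6.17), metallothionein and zinc transport (4.82), IL-6 and STAT3 (4.62) and NF-kB and TWEAK (3.73), and low in fast fibre (10.9) and striated muscle (13.0).

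Among the other PBS libraries, replicate 8 was high in Rps16 (86.9 CPM) and replicate 6 in Socs3 (30.1 CPM). Replicate 3 was high in Casq2 (69.4 CPM), Comp (22.8 CPM), Chad (37.5 CPM) and Fmod (358 CPM). Replicate 5 was low in Kcnu1 (0.0596 CPM) and in the myostatin and activin list (mean log2 CPM 4.20), and high in complex I (7.46) and in complexes III to V (8.47). Replicate 2 was low in mitochondrially encoded genes (9.38).

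Among tumour libraries, week 1 replicate 6 was high in Hsp90aa1 (62.6 CPM) and Igf1 (50.8 CPM). Week 1 replicate 1 was high in Col1a1 (173 CPM), Col3a1 (204 CPM), Comp (8.26 CPM), Fmod (160.0 CPM) and the extracellular matrix list (5.83). Week 1 replicate 7 was low in mitochondrially encoded genes (8.03), and week 2 replicate 2 was high in striated muscle (13.5). Week 2 replicate 6 had the lowest share of reads in genes (48.7%) and the highest shares in no gene (10.1%) and over more than 1 gene (11.0%).

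Effects that differed between groups by a test of the difference were Oaz2 between lanes (1.62 on the log2 scale, lane 6 minus lane 5) and Arntl between weeks (-1.83, week 2 minus week 1).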

How the results depend on the processing

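The count of 0 genes for early tumour against PBS was 4 with no low-count filter, 1 with DESeq2, 0 to 1 with 1 library left out, 7 for week 1 alone and 2 for week 2 alone, and 0 in the other alternatives, including all 38 libraries and all 15 early libraries without a lane term (2049 genes at an unadjusted p under 0.05). The lane interaction count of 1 became 35 with no filter, 30 with DESeq2, 11 with voom, 2 with tumour libraries of week 2 only, and 1 to 48 with 1 left out. It became 2 with the 3 libraries PBS replicate 1, week 1 replicate 7 and week 2 replicate 6 left out, and Oaz2 did not pass in that setting. PBS replicate 2, which also stood apart, was kept there. The week count of 1 became 112 with no filter, 54 with DESeq2, 8 with voom, 3 with those 3 left out, and 0 to 11 with 1 left out. Week 1 against PBS (7) had 1 with DESeq2, 0 with those 3 left out and 0 to 8 with 1 left out; week 2 against PBS (2) had 50, 0 and 0 to 6. The cause was not tested.

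Of 2724 values of 88 genes, 49 changed sign, and 28 of the 88 genes moved by over 1.5 times without some 1 library. With week 1 alone the log2 difference was 0.44 for Arntl, -0.56 for Per2, -0.0542 for Dbp, -0.0723 for Cblb, -0.22 for Per3, 0.17 for Clock, -0.31 for Cry2, -0.29 for Ciart, -0.21 for Hlf, -0.0170 for Tef, 0.71 for Npas2, -0.22 for Mylk4, -0.25 for Oaz2, 0.27 for Igf1 and 0.36 for Col3a1, and with week 2 alone -0.25 for Col1a1 and -0.28 for Nr1d1. In lane 5 it was 0.13 for Trim63, 0.10 for Foxo1, 0.25 for Igf1, 0.44 for Col3a1, -0.0756 for Cry2, -0.0612 for Hlf, 0.36 for Npas2 and -0.42 for Oaz2, and in lane 6 0.0493 for Mstn, -1.04 for Col1a1 and -0.15 for Nr1d1. With those 3 libraries left out it was 0.11 for Trim63, 0.22 for Col3a1, 0.0332 for Npas2 and -0.0444 for Oaz2. Voom gave 0.0159 for Trim63 and -0.0728 for Nr1d1, and no lane term gave -0.12 for Col1a1. All 38 libraries gave 0.0292 for Foxo1 and -0.19 for Nr1d1. All 15 early libraries gave 0.43 for Foxo1, -0.0839 for Col1a1, -0.31 for Nr1d1 and -0.0573 for Oaz2. With 1 library left out, the value ran from -0.23 to 0.0598 for Trim63, from -0.104 to 0.0192 for Foxo1, from -0.355 to 0.0275 for Igf1, from -0.137 to 0.356 for Col1a1, from -0.247 to 0.111 for Col3a1 and from -0.0794 to 0.157 for Nr1d1.

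No paired analysis was possible because no sample number is shared between the arms. Reads in genes from 14732772 per library limit genes of low level most, and arms of 7 and 8 libraries leave a median interval of 0.26 log2 units to either side.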

Other observations

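Some gene groups not described above were also measured in the 15 libraries, with 0 members called. Of 16 calcium handling genes 13 were higher, with a median log2 difference of 0.09, including Cacna1s, the voltage sensor of excitation and contraction coupling (0.23 ± 0.12), and Hrc, a calcium-binding protein of the sarcoplasmic reticulum (0.20 ± 0.09). At the neuromuscular junction Chrne, the adult acetylcholine receptor subunit, ran from 10.4 to 15.5 CPM in PBS and from 11.6 to 19.9 in early tumour (0.38 ± 0.11), while the median of the 16 genes of that list was -0.02. Myf6, a myogenic factor of mature fibres, ran from 85.5 to 142 CPM in PBS and from 64.0 to 94.7 in early tumour (-0.29 ± 0.10). Mfn2, which fuses mitochondria, was at 0.19 ± 0.08, and Cpt1b, which admits fatty acids to them, at 0.35 ± 0.14, in a fatty acid list with 10 of 25 higher. The interferon list had 10 of 29 higher, with a median of -0.10 that was 0.05 in lane 5 and -0.40 in lane 6.

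Among the 20 uncalled genes of smallest p, the PBS library nearest the tumour side was PBS replicate 8 in 9, PBS replicate 1 in 4 and PBS replicate 2 in 3. Over the 812 genes at an unadjusted p under 0.05 it was PBS replicate 8 in 16.7% and PBS replicate 2 in 18.5%.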
